A study of Homo sapiens with 6 samples.

Results

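The RNA exosome is the main 3′ to 5′ RNA-degrading complex of eukaryotic cells, and its core subunits in human cells are encoded by EXOSC1 to EXOSC10. All 10 of these genes were found by symbol among the 26391 rows of the deposited table, 1 row each, and all 10 were among the 16253 genes with enough reads to be tested. The cells were HEK293T, derived from human embryonic kidney and expressing the large T antigen of SV40. At 50% confluency they received 4 pooled siRNAs to LOC550643 or, as control, a non-silencing siRNA (Dharmafect I transfection). RNA was taken 48 hours later from 3 samples of each kind and its poly-A fraction sequenced. LOC550643 is described in the series as coding for a polypeptide that binds EDC4, a scaffold of the mRNA decapping machinery, and the comparison asks which steady-state RNA levels change on silencing. All samples come from the same cell line, and with 1 pool and 1 control siRNA the effects of silencing and other effects of either siRNA cannot be told apart.

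Decapping opens an mRNA to decay from its 5′ end, while the exosome works from the 3′ end after the poly-A tail has been removed. In the human complex, 6 proteins related to the bacterial nuclease RNase PH (EXOSC4 to EXOSC9) form a ring, built from the pairs EXOSC4 with EXOSC9, EXOSC5 with EXOSC8 and EXOSC6 with EXOSC7. The RNA-binding proteins EXOSC1, EXOSC2 and EXOSC3 sit on the ring as a cap. The human ring and cap have no nuclease activity of their own: RNA is cut by DIS3 or DIS3L below the ring and by EXOSC10 near the cap. In the nucleus the complex processes ribosomal RNA and removes faulty or short-lived transcripts, and in the cytoplasm it takes part in mRNA turnover with the SKI complex.

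In the LOC550643 siRNA samples, mRNAs of the ring shifted against each other. EXOSC7 was 1.4-fold and EXOSC4 1.20-fold higher than in non-silencing samples, while EXOSC6 fell to 0.603 and EXOSC9 to 0.735 of the non-silencing level. The nuclease EXOSC10 was 1.14-fold higher. The other 5 mRNAs, those of the 3 cap proteins and of the pair EXOSC5 and EXOSC8, did not pass the test. Thus 3 of the 10 rose, 2 fell and 5 were not called, at an adjusted p under 0.05 in limma, a linear model with moderated variances fitted to all 16253 genes. Across all tested genes the same test called 35.6% (17.5% higher and 18.1% lower), so 5 called of 10 is read against that broad background; without LOC550643 siRNA replicate 3 the count was 3 of 10. The split by direction moved with the scaling, to 1 higher and 3 lower with library totals alone and 1 higher and 2 lower with upper-quartile scaling. In 6 of the 10 the libraries of the groups did not overlap, as in 48.6% of all tested genes. The median log2 fold change of the members was -0.06, beside -0.02 over all tested genes, and the median absolute log2 change was 0.23 in both. By absolute log2 change EXOSC6 stood at percentile 92.2 of all tested genes, EXOSC7 at 81.4 and EXOSC9 at 77.7. Shifts of the size of EXOSC7 and EXOSC9 were thus common.

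The targeted gene, listed as LINC01420, averaged 5.74 ± 0.286 CPM (counts per 1000000, after TMM scaling of the libraries) in LOC550643 siRNA samples and 52.9 ± 2.88 CPM in non-silencing samples (SD, n = 3 each). The LOC550643 siRNA libraries held 70499986, 61478642 and 17208472 read ends in genes and the non-silencing libraries 64619928, 66842323 and 72164809, as recovered from the scaled values. LOC550643 siRNA replicate 3 was thus the shallowest, and its lowest count for a member was 362 read ends, for EXOSC5. Non-silencing replicate 2 stood farthest from its group, at root mean square log2 differences of 0.249 and 0.294 from replicates 1 and 3, which were 0.168 apart.

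Promoter windows are shown for EXOSC6, EXOSC7 and EXOSC9, the 3 members whose calls held in every fit tried. Each is the RefSeq window from 250 bases before to 50 bases after the gene's start in GRCh38.p14, a build used here for these sequences only: chr16:70251891-70252190 on the minus strand for EXOSC6, chr3:44975994-44976293 on the plus strand for EXOSC7 and chr4:121801073-121801372 on the plus strand for EXOSC9. Capitals mark the letters GGGCGG (GC box), CCAAT and TGACGT (the core of the cAMP response element), searched on both strands.
EXOSC6: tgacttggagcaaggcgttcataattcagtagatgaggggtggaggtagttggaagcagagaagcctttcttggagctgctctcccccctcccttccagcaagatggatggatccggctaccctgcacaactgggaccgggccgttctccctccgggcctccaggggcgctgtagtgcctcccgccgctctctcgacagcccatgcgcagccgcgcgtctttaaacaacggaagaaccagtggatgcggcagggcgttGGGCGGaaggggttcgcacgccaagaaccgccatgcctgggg
EXOSC7: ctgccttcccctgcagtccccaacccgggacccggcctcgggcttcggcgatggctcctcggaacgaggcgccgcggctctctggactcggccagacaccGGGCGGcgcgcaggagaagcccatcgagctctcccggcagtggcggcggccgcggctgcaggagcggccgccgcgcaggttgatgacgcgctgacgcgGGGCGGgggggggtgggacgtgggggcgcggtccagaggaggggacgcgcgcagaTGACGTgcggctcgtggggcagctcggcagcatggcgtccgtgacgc
EXOSC9: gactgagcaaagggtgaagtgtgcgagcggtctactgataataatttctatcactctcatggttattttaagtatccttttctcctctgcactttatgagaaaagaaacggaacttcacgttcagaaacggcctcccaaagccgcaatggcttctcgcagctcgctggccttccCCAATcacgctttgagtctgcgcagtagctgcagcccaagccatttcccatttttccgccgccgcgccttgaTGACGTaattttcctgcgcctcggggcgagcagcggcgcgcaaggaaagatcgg

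GGGCGG stands 1 time in that of EXOSC6, 2 times in that of EXOSC7 and 0 times in that of EXOSC9, and 45.0% of 35116 RefSeq promoter windows hold it. TGACGT, added to the search with these windows in view, stands 1 time each in the windows of EXOSC7, which rose, and EXOSC9, which fell. It is held by 7.98% of all windows, a share that cannot test its presence in windows picked in this way. CCAAT is in the EXOSC9 window only among these 3, and in 34.6% of all. The letters CCGGAAG (10.3% of all windows), GCGCATGC (3.05%), CACGTG (7.26%) and TATAAA (11.5%) are in none of the 3. G and C make up 62.3% of the EXOSC6 window, 76.0% of that of EXOSC7 and 52.3% of that of EXOSC9, with a median of 58.7% over all windows. The searched letters do not overlap one another in the 3 windows shown.

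Within the ring, the mRNAs of the pair EXOSC6 and EXOSC7 moved in opposite directions. EXOSC6, an RNase PH-like protein also known as MTR3, stood at 35.8, 34.8 and 31.1 CPM in LOC550643 siRNA replicates 1 to 3, against 57.1, 56.4 and 55.0 CPM in the non-silencing replicates. Every LOC550643 siRNA library was below every non-silencing library. The log2 fold change was -0.73 with an SE of 0.076 (limma adjusted p = 4.79e-05), with a 95% interval of -0.90 to -0.56. The gene lies on the minus strand of chromosome 16 at 70284134 to 70285833 (hg19) and has 1 exon. The deposited row covers 1697 bases of it, whereas the transcript in the newer GENCODE annotation is 5163 bases long, so reads beyond the deposited row are not in these values.

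EXOSC7, the partner of EXOSC6 and also known as RRP42, stood at 50.6, 54.0 and 54.0 CPM in LOC550643 siRNA libraries, against 39.7, 33.2 and 40.3 CPM in non-silencing libraries. The groups did not overlap, and non-silencing replicate 2 was the lowest library. The log2 fold change was 0.49 with an SE of 0.087 (limma adjusted p = 0.00131, 95% interval 0.30 to 0.68), and it was 0.39 without non-silencing replicate 2. EXOSC7 lies on the plus strand of chromosome 3 at 45017741 to 45052962 (hg19) and has 8 exons, and in GENCODE its exons overlap those of CLEC3B on the same strand.

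The mRNAs of the pair EXOSC4 and EXOSC9 also moved in opposite directions, with EXOSC9 lower and EXOSC4 higher. This brought their levels closer together, since EXOSC9 was the higher of the 2 in both groups. EXOSC9, an autoantigen of the polymyositis-scleroderma overlap syndrome (PM/Scl-75), stood at 84.2, 77.2 and 72.6 CPM in LOC550643 siRNA libraries, against 103.4, 99.6 and 115.2 CPM in non-silencing libraries. Again no library of the first group reached the lowest of the other. Its log2 fold change was -0.44 with an SE of 0.081 (limma adjusted p = 0.00157, 95% interval -0.62 to -0.27). EXOSC9, on the plus strand of chromosome 4 at 122722472 to 122738176 (hg19) with 12 exons, overlaps the 3′ end of CCNA2 on the opposite strand over 578 bases. The libraries were stranded, but the deposited counting command names no strand option, so reads there may be in either row. CCNA2, which codes for cyclin A2, averaged 191.7 ± 2.98 CPM in LOC550643 siRNA samples and 174.6 ± 7.55 CPM in non-silencing samples (SD, n = 3 each), a difference of 0.14 in log2 that did not pass (limma adjusted p = 0.128). Its part in the EXOSC9 values was not tested.

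EXOSC4, also known as RRP41, stood at 34.2, 30.7 and 32.8 CPM in LOC550643 siRNA libraries, against 29.3, 26.1 and 26.3 CPM in non-silencing libraries. Those groups stood close, with 30.7 CPM the lowest of the first and 29.3 CPM the highest of the second. The log2 fold change was 0.26 with an SE of 0.082 (limma adjusted p = 0.029). This call was lost without LOC550643 siRNA replicate 1 or 3 (limma adjusted p = 0.0913 and 0.0672), without non-silencing replicate 2 or 3 (0.0799 and 0.0907), on libraries thinned to the shallowest (0.0647), and with upper-quartile scaling (0.055) or library totals alone (0.102). EXOSC4 (chromosome 8, 145133522 to 145135551, plus strand, hg19) holds the row of MIR6847 within it on the same strand. In GENCODE its exons also overlap those of an unnamed protein-coding gene on the same strand, whose span shares 2007 bases. On the opposite strand its exons overlap those of a long noncoding RNA, whose span shares 647 bases.

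The pair EXOSC5 and EXOSC8 gave no call. EXOSC5, also known as RRP46, stood at 29.45, 24.8 and 21.6 CPM in LOC550643 siRNA libraries, against 28.6, 25.6 and 28.6 CPM in non-silencing libraries, and the groups overlapped. Its log2 fold change was -0.14 (95% interval -0.38 to 0.10, limma adjusted p = 0.358), and it was -0.25 without LOC550643 siRNA replicate 1 and -0.028 without LOC550643 siRNA replicate 3. EXOSC8, also known as RRP43, stood at 85.2, 70.0 and 70.4 CPM in LOC550643 siRNA libraries, against 80.2, 67.7 and 79.6 CPM in non-silencing libraries. LOC550643 siRNA replicate 1 was the highest and non-silencing replicate 2 the lowest of the 6. The log2 fold change was -0.01 with a 95% interval of -0.22 to 0.20 (limma adjusted p = 0.927), so a change within those bounds was not excluded. EXOSC8 overlaps SUPT20H on the opposite strand over 301 bases.

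**Figure D1:**
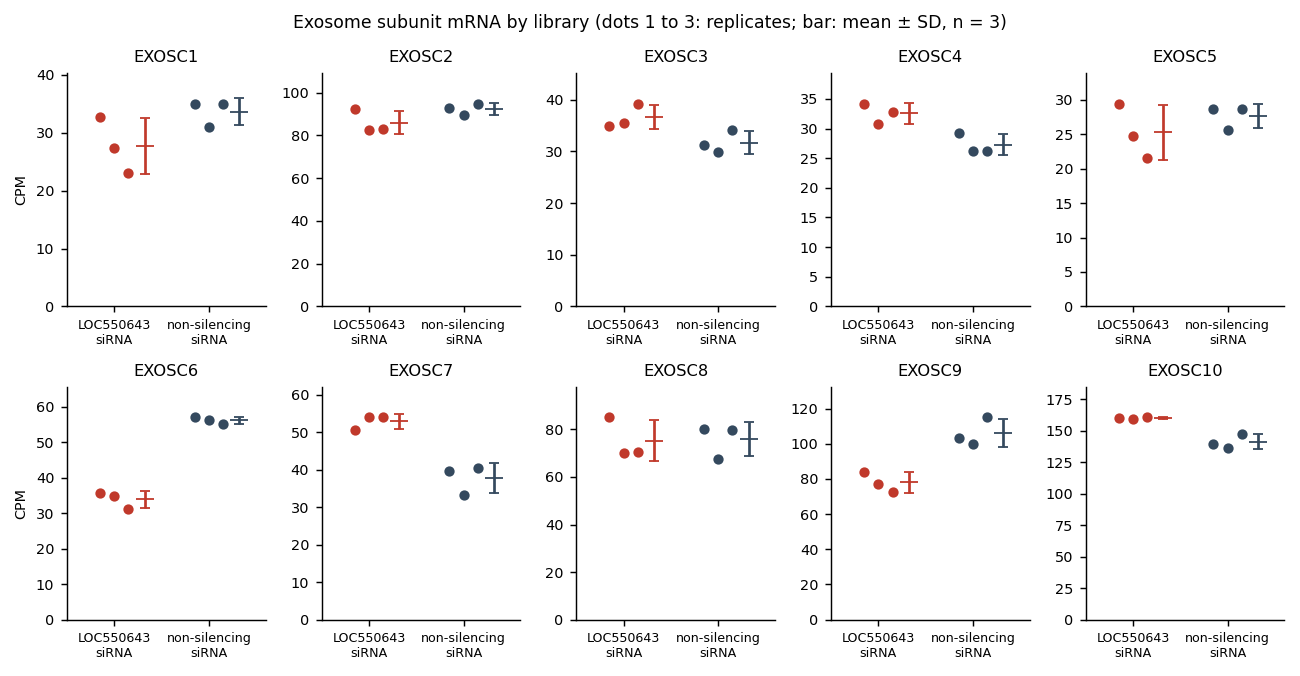
CPM of each of the 10 exosome subunit mRNAs (y axis, from 0) in the 3 LOC550643 siRNA libraries (red, left) and the 3 non-silencing siRNA libraries (dark, right); dots are replicates 1 to 3 and bars are the mean ± SD. EXOSC6 and EXOSC9 are lower and EXOSC7 higher in every LOC550643 siRNA library than in any non-silencing library, whereas the groups overlap for EXOSC1, EXOSC2, EXOSC5 and EXOSC8.

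The balance within each ring pair was taken as the log2 ratio of the 2 mRNAs per kb of deposited length in each library, a quantity that does not depend on how libraries are scaled. EXOSC6 over EXOSC7 was -1.22, -1.36 and -1.52 in LOC550643 siRNA replicates 1 to 3, against -0.20, 0.04 and -0.28 in non-silencing replicates. At the deposited lengths there was thus 0.387 of EXOSC6 per EXOSC7 mRNA in LOC550643 siRNA samples, beside 0.903 in non-silencing samples. The difference between the groups, -1.22 in log2, does not depend on those lengths. The SD over libraries was 0.15 in LOC550643 siRNA samples and 0.16 in non-silencing samples.

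EXOSC4 over EXOSC9 was -0.43, -0.46 and -0.27 in LOC550643 siRNA libraries, against -0.95, -1.06 and -1.26 in non-silencing libraries, a difference of 0.70 in log2. At the deposited lengths the ratio was 0.765 in LOC550643 siRNA samples and 0.470 in non-silencing samples, so this pair came closer to balance. The SD was 0.10 in LOC550643 siRNA samples and 0.16 in non-silencing samples. EXOSC5 over EXOSC8 was -1.03, -0.99 and -1.20 in LOC550643 siRNA libraries, against -0.98, -0.90 and -0.97 in non-silencing libraries, a difference of -0.12 in log2 that was -0.060 without LOC550643 siRNA replicate 3. For each of the 3 pairs the groups did not overlap, and the two-sided exact permutation test gave p = 0.1, the smallest that 3 against 3 libraries allow, and 0.1 after Benjamini-Hochberg adjustment over the 3 pairs. The test therefore cannot rank them. Among single tested genes the groups did not overlap in 48.6%, and the share among ratios of other gene pairs was not computed. In size, the EXOSC6 over EXOSC7 and EXOSC4 over EXOSC9 differences were several times the larger SD of their groups, and that of EXOSC5 over EXOSC8 was about as large as its SD of 0.11 in LOC550643 siRNA samples.

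**Figure D2:**
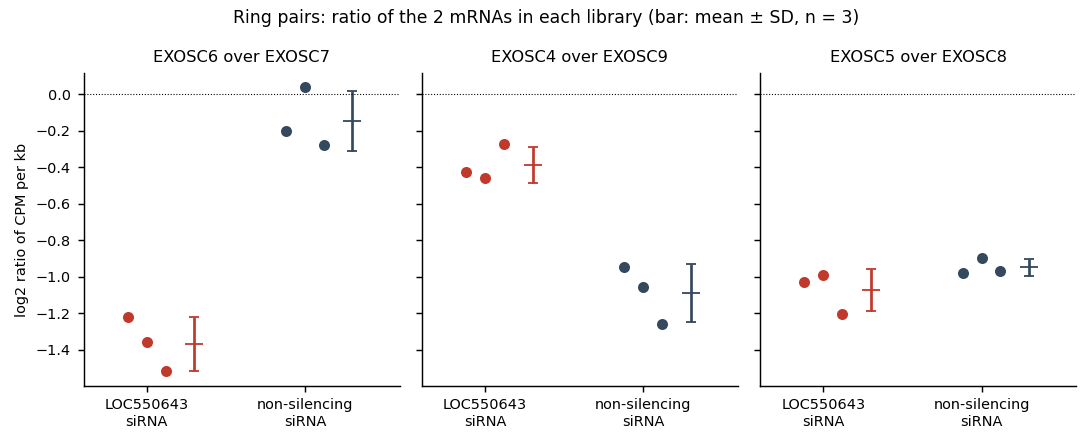
Log2 ratio of CPM per kb of the 2 mRNAs of each ring pair (y axis) in the LOC550643 siRNA libraries (red, left) and the non-silencing siRNA libraries (dark, right), with mean ± SD bars (n = 3). EXOSC6 over EXOSC7 differs by -1.22 and EXOSC4 over EXOSC9 by 0.70, LOC550643 siRNA minus non-silencing, while EXOSC5 over EXOSC8 lies between -1.20 and -0.90 in all 6 libraries.

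The cap mRNAs gave no call. EXOSC1, also known as CSL4, stood at 32.8, 27.4 and 23.0 CPM in LOC550643 siRNA libraries, against 35.0, 31.0 and 35.0 CPM in non-silencing libraries. The groups overlapped, with LOC550643 siRNA replicate 1 above non-silencing replicate 2. The log2 fold change was -0.29 (95% interval -0.55 to -0.03, limma adjusted p = 0.074). It passed without LOC550643 siRNA replicate 1 (log2 -0.42, limma adjusted p = 0.0144), without non-silencing replicate 2 (-0.36, 0.0394) and with library totals alone (-0.37, 0.0328), and was -0.16 without LOC550643 siRNA replicate 3 (limma adjusted p = 0.26).

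EXOSC2, also known as RRP4, stood at 92.2, 82.5 and 83.2 CPM in LOC550643 siRNA libraries, against 92.9, 89.4 and 94.9 CPM in non-silencing libraries, and the groups overlapped (log2 fold change -0.10, 95% interval -0.26 to 0.05, limma adjusted p = 0.27). EXOSC3, also known as RRP40 and mutated in a form of pontocerebellar hypoplasia, stood at 34.9, 35.5 and 39.2 CPM in LOC550643 siRNA libraries, against 31.1, 29.9 and 34.1 CPM in non-silencing libraries. All 3 LOC550643 siRNA libraries were above the non-silencing ones, by a margin of under 1 CPM between the nearest. Its log2 fold change of 0.21 did not pass (95% interval 0.02 to 0.39, limma adjusted p = 0.0732), and it passed with GC content and length trends removed (0.23, limma adjusted p = 0.0158). In GENCODE the exons of EXOSC3 overlap those of an unnamed protein-coding gene on the same strand, whose span shares 5379 bases.

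EXOSC10, the one member with nuclease activity, rose by a small amount. EXOSC10, the nuclear nuclease known in yeast as Rrp6, stood at 160.0, 159.2 and 160.9 CPM in LOC550643 siRNA libraries, against 139.2, 136.2 and 147.6 CPM in non-silencing libraries. The groups did not overlap, and the log2 fold change was 0.18 with an SE of 0.065 (limma adjusted p = 0.0456). The call was lost when LOC550643 siRNA replicate 1, 2 or 3 was left out (limma adjusted p = 0.09, 0.103 and 0.1), without non-silencing replicate 1 or 2 (0.135 and 0.11), without a filter on low values (0.0701), on thinned libraries (0.0532), and with upper-quartile scaling (0.0908) or library totals alone (0.196). The gene lies on the minus strand of chromosome 1 at 11126670 to 11159967 (hg19), has 25 exons and overlaps EXOSC10-AS1 on the opposite strand. Its exons also overlap those of an unnamed long noncoding RNA on the opposite strand, whose span shares 4627 bases.

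DIS3, the processive nuclease of the nuclear exosome, was not called, at 174.3, 188.5 and 207.1 CPM in LOC550643 siRNA libraries, against 153.0, 162.1 and 175.5 CPM in non-silencing libraries (log2 fold change 0.21, 95% interval 0.03 to 0.40, limma adjusted p = 0.0619). Its libraries overlapped by about 1 CPM, and the gene overlaps BORA on the opposite strand over 797 bases. It passed without LOC550643 siRNA replicate 1 (limma adjusted p = 0.0367), without non-silencing replicate 3 (0.0462), on thinned libraries (0.0481), with DESeq2 (0.0408) and with GC content and length trends removed (0.0139). DIS3L, its cytoplasmic counterpart, averaged 47.0 ± 3.00 CPM in LOC550643 siRNA samples and 53.2 ± 5.6 CPM in non-silencing samples (SD, n = 3 each), a log2 difference of -0.18 (limma adjusted p = 0.145) that passed with library totals alone (0.0424) and with GC content and length trends removed (0.0467), and was -0.090 without non-silencing replicate 3.

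Per length, the 10 mRNAs lay between 19.9 and 56.8 CPM per kb in LOC550643 siRNA samples and between 17.3 and 65.1 CPM per kb in non-silencing samples, and their order differed. Within a group the order depends on the deposited lengths, which for some genes differ from the GENCODE transcript length. The deposited length is 1398 bases for EXOSC8 (1166 in GENCODE), 2532 for EXOSC2 (2012) and 1697 for EXOSC6 (5163). An order with GENCODE lengths was not computed. In LOC550643 siRNA samples the highest was EXOSC10 at 56.8 ± 0.292 CPM per kb, followed by EXOSC8 (53.8 ± 6.20), EXOSC7 (51.5 ± 1.92) and EXOSC9 (47.9 ± 3.59), and each of these overlapped its neighbour in the order. EXOSC4 (36.6 ± 1.97) and EXOSC2 (34.0 ± 2.14) came next and overlapped each other, below all libraries of EXOSC9. EXOSC5 (25.7 ± 4.03), EXOSC1 (24.3 ± 4.27), EXOSC6 (19.99 ± 1.45) and EXOSC3 (19.9 ± 1.27) closed the order, each overlapping the next (CPM per kb, SD, n = 3).

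In non-silencing samples, at the deposited lengths, EXOSC9 was the highest at 65.1 ± 5.00 CPM per kb, with no library overlapping those of EXOSC8 (54.2 ± 5.08). That separation depends on the deposited length of EXOSC8. EXOSC10 (50.1 ± 2.11) came after EXOSC8 and overlapped it. EXOSC7 (36.8 ± 3.84), EXOSC2 (36.5 ± 1.10), EXOSC6 (33.1 ± 0.633), EXOSC4 (30.6 ± 1.98), EXOSC1 (29.5 ± 2.03) and EXOSC5 (28.0 ± 1.76) followed, and among these only EXOSC2 and EXOSC6 were neighbours whose libraries did not overlap. EXOSC3 (17.3 ± 1.17) was the lowest in every library of this group (CPM per kb, SD, n = 3). EXOSC6 was thus in place 9 of the order in LOC550643 siRNA samples and in place 6 in non-silencing samples, and EXOSC9 was in place 4 in LOC550643 siRNA samples and in place 1 in non-silencing samples.

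The sum over the 10 mRNAs was 392.4, 362.9 and 356.3 CPM per kb in LOC550643 siRNA replicates 1 to 3, against 389.0, 357.7 and 397.2 CPM per kb in non-silencing replicates. The groups overlapped, and the ratio of their means was 0.972 (two-sided exact permutation test, p = 0.7). The share of EXOSC6 in that sum was 5.39% in LOC550643 siRNA samples and 8.70% in non-silencing samples, that of EXOSC9 12.9% in LOC550643 siRNA samples and 17.1% in non-silencing samples, and that of EXOSC7 13.95% in LOC550643 siRNA samples and 9.63% in non-silencing samples. For the 3 cap mRNAs the sum was 78.2 ± 5.24 CPM per kb in LOC550643 siRNA samples and 83.3 ± 4.09 CPM per kb in non-silencing samples (SD, n = 3 each).

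**Figure D3:**
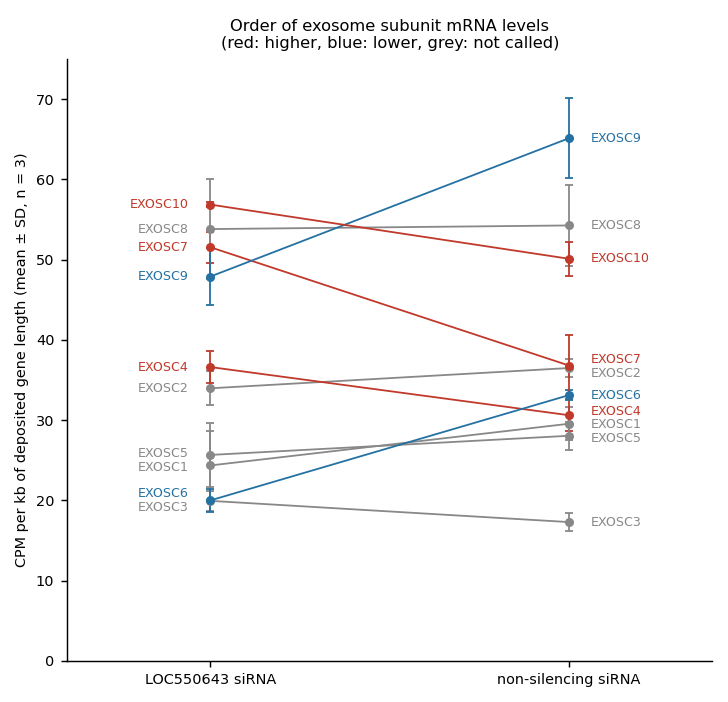
Level of the 10 subunit mRNAs in CPM per kb of deposited gene length (y axis, mean ± SD, n = 3) in LOC550643 siRNA samples (left) and non-silencing siRNA samples (right), joined by gene; red marks genes called higher in LOC550643 siRNA samples, blue genes called lower, grey genes not called. EXOSC9 and EXOSC6 lie lower and EXOSC7 higher on the left, where EXOSC6 is at 19.99 and EXOSC7 at 51.5.

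The authors' deposited table called 3 of the 10 at an adjusted p under 0.05, beside 19.8% of its 26391 rows. Only 16253 of those rows had enough reads to be tested here, as all 10 members had. The 19.8% is thus not a like background for the members. These were EXOSC6 (log2 fold change -0.72, adjusted p = 1.86e-11), EXOSC7 (0.48, 8.77e-05) and EXOSC9 (-0.44, 0.000153) in the authors' deposited table, where the sign runs as here. EXOSC4 (adjusted p = 0.0685) and EXOSC10 (0.15) were not called in the authors' deposited table, and none of the 10 reached a log2 fold change of 1 in size there.

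Among 12 cofactors of the nuclear exosome, 2 rose, 2 fell and 8 were not called, so that 33.3% were called, beside 35.6% of all tested genes. Their median log2 fold change was -0.02. Both mRNAs that fell code for zinc finger proteins of the poly-A tail exosome targeting connection, which directs polyadenylated nuclear RNA to the exosome. ZC3H3 stood at 28.5, 31.7 and 24.9 CPM in LOC550643 siRNA libraries, against 53.9, 49.8 and 51.8 CPM in non-silencing libraries (log2 difference -0.87 with an SE of 0.092, limma adjusted p = 5.1e-05). ZFC3H1 stood at 88.2, 95.7 and 106.6 CPM in LOC550643 siRNA libraries, against 122.8, 178.8 and 130.6 CPM in non-silencing libraries (log2 difference -0.56 with an SE of 0.126, limma adjusted p = 0.00552). The groups overlapped for neither, and non-silencing replicate 2 was the highest for ZFC3H1. PABPN1, the nuclear poly-A binding protein of the same pathway, was at -0.05 in log2 (limma adjusted p = 0.655), and its row shares exons with BCL2L2-PABPN1. The helicase SKIV2L2 (MTR4), also of that pathway, went the other way and was called higher (0.24, limma adjusted p = 0.0268). The pathway as a whole was thus not lower.

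SKIV2L2, the helicase MTR4 (now MTREX) that threads RNA into the nuclear exosome, averaged 146.5 ± 4.66 CPM in LOC550643 siRNA samples and 124.2 ± 10.4 CPM in non-silencing samples (SD, n = 3 each; log2 fold change 0.24, limma adjusted p = 0.0268). SRRT, which links the cap-binding complex to the exosome adaptors, averaged 182.1 ± 10.4 CPM in LOC550643 siRNA samples and 154.2 ± 12.9 CPM in non-silencing samples (0.24, limma adjusted p = 0.0334). Both calls were lost in 4 of 6 fits with 1 library left out, for SKIV2L2 without LOC550643 siRNA replicates 2 and 3 and non-silencing replicates 1 and 2 (limma adjusted p = 0.0951, 0.069, 0.11 and 0.066). For SRRT they were LOC550643 siRNA replicates 2 and 3 and non-silencing replicates 1 and 3 (limma adjusted p = 0.125, 0.0892, 0.0971 and 0.119). With library totals alone both were lost as well (0.0959 for SKIV2L2 and 0.119 for SRRT). SKIV2L2 overlaps PPAP2A on the opposite strand over 740 bases.

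The other nuclear cofactors did not pass. The adaptors RBM7 and ZCCHC8 of the nuclear exosome targeting complex had log2 fold changes of 0.18 and -0.18 (limma adjusted p = 0.0868 and 0.1). ZCCHC7 and PAPD5 (now TENT4B), a poly-A polymerase, which work with MTR4 in adding short tails to nuclear RNA, were at -0.11 and 0.02 (0.403 and 0.913). MPHOSPH6 and C1D, which act in ribosomal RNA processing with EXOSC10, were at 0.04 and -0.41 (0.77 and 0.0681), and ZC3H18 was at 0.18 (0.0595). C1D, the largest of these in size, stood at 16.6, 10.4 and 12.7 CPM in LOC550643 siRNA libraries, against 20.4, 14.96 and 17.0 CPM in non-silencing libraries, and the groups overlapped. C1D passed without LOC550643 siRNA replicate 1 or non-silencing replicate 2 (limma adjusted p = 0.0139 and 0.0279), with library totals alone (0.0412) and with DESeq2 (0.0439), and was at -0.25 without LOC550643 siRNA replicate 2 (limma adjusted p = 0.259). ZCCHC8 passed without LOC550643 siRNA replicate 1 (limma adjusted p = 0.0447), with library totals alone (0.0262) and with GC content and length trends removed (0.0497). ZC3H18 passed without non-silencing replicate 2 (0.0393), with median-of-ratios scaling (0.0496) and with those trends removed (0.0139), and RBM7 with those trends removed (0.0252).

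On the cytoplasmic side, 1 of 4 genes rose and 1 fell. HBS1L, whose short isoform is the human counterpart of the yeast bridge between SKI complex and exosome, stood at 325.6, 349.9 and 332.7 CPM in LOC550643 siRNA libraries, against 248.6, 235.0 and 286.5 CPM in non-silencing libraries (log2 difference 0.39 with an SE of 0.083, limma adjusted p = 0.00363). The row sums all isoforms, so it does not give the level of the short isoform. TTC37, the scaffold of the SKI complex, stood at 100.9, 98.7 and 101.9 CPM in LOC550643 siRNA libraries, against 110.8, 123.1 and 118.9 CPM in non-silencing libraries (-0.23, SE 0.067, limma adjusted p = 0.0222). That call was lost without LOC550643 siRNA replicate 1 or 2 (limma adjusted p = 0.0505 and 0.0773) or non-silencing replicate 3 (0.0649). The helicase SKIV2L (0.15, limma adjusted p = 0.173), whose row is listed at 6 genome positions, and WDR61 (-0.15, 0.272) were not called. Together, 6 of the 18 catalytic, nuclear and SKI genes were called (3 higher, 3 lower), or 33.3%, near the 35.6% over all tested genes. With library totals alone 7 were called, 1 higher and 6 lower.

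**Figure D4:**
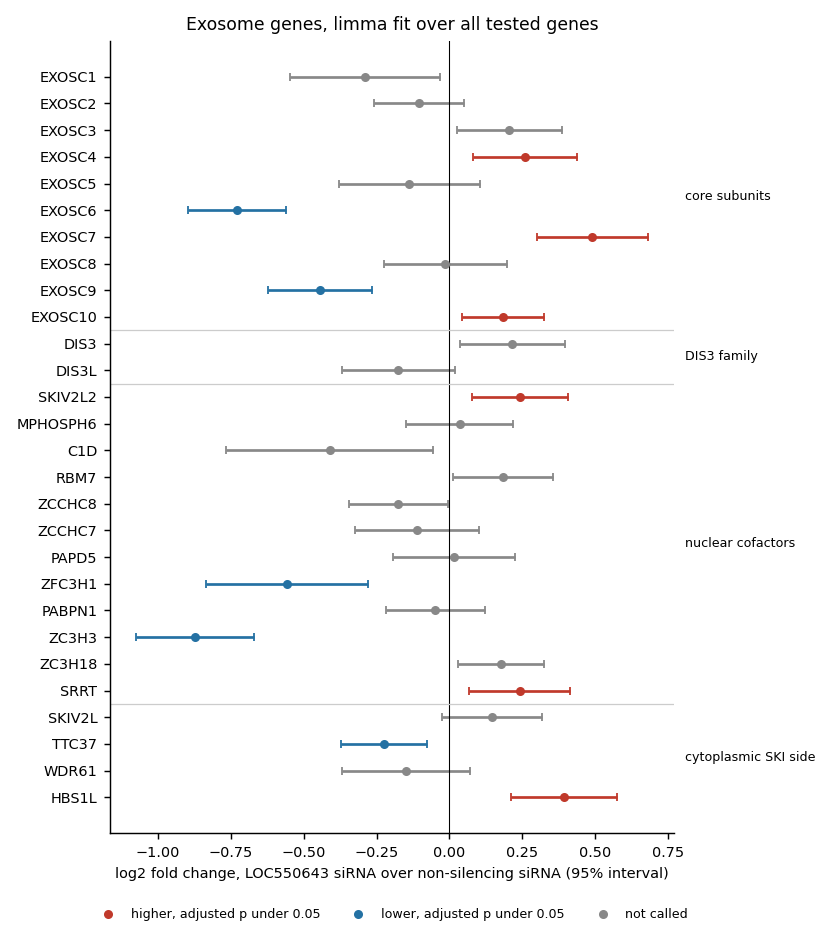
Log2 fold change of LOC550643 siRNA over non-silencing siRNA samples (x axis) with its 95% interval from limma for the core subunits, DIS3 and DIS3L, the nuclear cofactors and the cytoplasmic SKI genes. Red marks genes called higher, blue genes called lower and grey genes not called; ZC3H3 at -0.87, EXOSC6 at -0.73 and ZFC3H1 at -0.56 lie farthest to the left and EXOSC7 at 0.49 farthest to the right.

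Of 15 other exoribonucleases, which work without the exosome core, 4 rose and 1 fell. The remaining 10 were not called, so that 33.3% were called, beside 35.6% of all tested genes, and the median over the 15 was 0.10 in log2. REXO4 averaged 76.3 ± 3.44 CPM in LOC550643 siRNA samples and 57.6 ± 1.48 CPM in non-silencing samples (SD, n = 3 each; log2 fold change 0.41, limma adjusted p = 0.000935), and overlaps STKLD1 on the opposite strand over 39 bases. ISG20L2, a nucleolar exonuclease of ribosomal RNA processing, rose by log2 0.32 (limma adjusted p = 0.0048). USB1, which trims the end of U6 small nuclear RNA, fell to 44.02 ± 1.5 CPM in LOC550643 siRNA samples, against 59.7 ± 3.58 CPM in non-silencing samples (-0.44, limma adjusted p = 0.000918).

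DIS3L2, a relative of DIS3 that degrades uridylated RNA outside the exosome, was at 0.26 (limma adjusted p = 0.0232) and ERI3 at 0.22 (0.049). The DIS3L2 call was lost with library totals alone (0.0832) and without LOC550643 siRNA replicate 1 or 2 or non-silencing replicate 1 or 3 (limma adjusted p = 0.0679, 0.0756, 0.0753 and 0.0671). For ERI3 the call was lost in 5 of 6 fits with 1 library left out, the exception being that without LOC550643 siRNA replicate 3 (limma adjusted p = 0.141 and 0.148 without LOC550643 siRNA replicates 1 and 2, and 0.0723, 0.146 and 0.0659 without non-silencing replicates 1 to 3), and with library totals alone (0.168), upper-quartile scaling (0.0921), no filter (0.0738), a mean of at least 1 CPM (0.0513) and thinned libraries (0.151).

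The genes whose values over the 6 libraries were most like those of EXOSC6 and EXOSC7 were found by the root mean square difference of gene-centred log2 values among 14716 other genes of at least 1 CPM. For EXOSC6 they were TBC1D13 (difference 0.0187, log2 fold change -0.73), EIF3J-AS1 (0.0379, -0.69) and C2CD2L (0.0398, -0.71). For EXOSC7 they were MED10 (0.0274, 0.50), ANXA1 (0.0354, 0.53) and ANXA2P2 (0.0355, 0.55), the last a processed copy of ANXA2 with which it may share reads. With 2 groups of 3 libraries, such likeness is mostly a like difference between the groups.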

How the data were processed

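The authors deposited a signal per gene: read coverage of exons, rescaled to a common library total. Per the file headers, HOMER counted reads over exons of hg19 genes with transcripts of a gene merged and no strand option named. CASAVA 1.8.2, STAR 2.4.0k (hg19) and edgeR 3.6.8 were used, per the labels' protocols; the last gave the authors' deposited log2 fold changes, p-values and adjusted p-values. Within a library, 100% of the low values checked fall within 0.1 of a whole number of steps; a step is taken as 1 read end, an inference from the values.

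Because the file holds scaled values, the test was limma 3.58.1 in R 4.3.3 (two-sided, mean trend) on TMM-scaled values in log2, with a pseudocount of 1 deposited unit (0.034 CPM). The filter was edgeR's with a minimum of 10 read pairs, and Benjamini-Hochberg adjustment ran over 16253 genes. Fold changes are LOC550643 siRNA over non-silencing siRNA and understate those of low genes. CPM are deposited values per 1000000 of the TMM-scaled total; per-length levels use the deposited length in bases, given in the same table per the file headers as another column. On recovered read ends, edgeR 4.0.16 called 5848 genes and DESeq2 1.42.0 called 5910. Other alternatives were scalings, filters, pseudocounts, voom, a replicate block, thinning, removal of GC content and length trends (values for 94.7% of genes, from GENCODE 44 on GRCh37) and each library left out. With library totals alone, 34.3% of calls were higher, against 49.1% with TMM.

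Every member is named, as are the catalytic, nuclear and SKI lists in full, the called members of the exoribonuclease list, and the 3 most similar genes for the largest rise and fall. Members and lists were chosen with earlier results of these data known, and TGACGT was added to the promoter search with the windows in view. Replicates of a group differed by more than sampling noise in every pair (chi-square over its degrees of freedom 5.32 to 41.6). Whether they were separate cultures is not stated in the labels, so the p-values cover only the spread among these samples, possibly technical.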

Additional observations from a re-analysis of the deposited data

How the results depend on the processing

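The calls of EXOSC6, EXOSC7 and EXOSC9 kept their direction and stayed called in all 21 alternatives run, with log2 fold changes of -0.81 to -0.67, 0.39 to 0.54 and -0.52 to -0.38. The number of subunits called was 5, and 6 with GC content and length trends removed (45.2% of all genes tested there). It was 3 with upper-quartile scaling, thinned libraries or an adjusted p under 0.01, where 35.5%, 35.0% and 21.7% of all tested genes were called. With 1 library left out it was 3 to 4, the 3 without LOC550643 siRNA replicate 3 (30.3% of all). Cofactors called numbered 6, but 11 with GC content and length trends removed, a setting that called 45.2% of all genes tested in it, and 3 at an adjusted p under 0.01 (3 to 8 with 1 library left out, the 3 without LOC550643 siRNA replicate 2). Other exoribonucleases called numbered 5, and 3 with library totals alone or at an adjusted p under 0.01 (3 to 5 with 1 library left out, the 3 without LOC550643 siRNA replicate 1 or 2 or non-silencing replicate 1). Over all genes 5789 were called, 3519 at an adjusted p under 0.01 and 4391 to 5506 with 1 library left out.

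Directions turned only at genes that were not called. EXOSC8 was at 0.061 with GC content and length trends removed, and at 0.036, 0.031, 0.030 and 0.024 without LOC550643 siRNA replicate 2, LOC550643 siRNA replicate 3, non-silencing replicate 1 and non-silencing replicate 3. PAPD5 was at -0.013 with upper-quartile scaling, -0.060 with library totals, -0.012 with voom, -0.029 when thinned, and -0.015, -0.050 and -0.027 without LOC550643 siRNA replicates 2 and 3 and non-silencing replicate 1. MPHOSPH6 was at -0.041 with library totals and -0.0045 without non-silencing replicate 2, PABPN1 at 0.016 without LOC550643 siRNA replicate 1, and EDC4 at 0.0050 without LOC550643 siRNA replicate 3. With 1 library left out the ranges were -0.11 to 0.036 for EXOSC8, -0.050 to 0.12 for PAPD5, -0.0045 to 0.087 for MPHOSPH6, -0.094 to 0.016 for PABPN1 and -0.090 to 0.0050 for EDC4. The cause was not tested.

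The replicate block called 5397 genes, among them 4 of the 10 subunits, with EXOSC10 lost at a limma adjusted p of 0.062. Of the other genes named, the block lost ERI3 (0.0677; edgeR with the block 0.0679) and called DIS3 (0.0344; 0.0326) and C1D (0.0125; 0.0112). Same-numbered libraries did not deviate together (correlations 0.0602, -0.284 and -0.121), so the numbers were not taken as pairs. With every library thinned to the shallowest, LOC550643 siRNA replicate 3 at 17208472 read ends, 35.0% of 14590 genes were called.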
